A study of Mus musculus with 8 samples.

Results

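Serine is made from the glycolytic intermediate 3-phosphoglycerate by the enzymes PHGDH, PSAT1 and PSPH, and the mitochondrial enzymes SHMT2 and MTHFD2 then pass carbon units from serine to folate. Genes for these enzymes, and Asns for asparagine synthetase, are known targets of ATF4, a transcription factor whose mRNA is translated preferentially when eIF2α is phosphorylated in the integrated stress response. Ddit3 (CHOP), Trib3 and Chac1 are stress genes that ATF4 is also known to act on. In the brain, PHGDH is known mainly from astrocytes and other glia, and ATF4 is known to be regulated to a large degree through translation of its mRNA, which an RNA count does not measure.

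The 10 genes Phgdh, Psat1, Psph, Shmt2, Mthfd2, Asns, Atf4, Ddit3, Trib3 and Chac1 were taken by symbol from a table of 31406 genes, and each matched a single gene identifier. They had been chosen by measured values: earlier results of the same comparison (dual against A2A antagonist, below) were known when the genes were picked, and no threshold was set. The differences between the groups are therefore given as a description of these 10 genes. How many of them pass the thresholds of the main fit is stated beside the share of all genes. For alternative fits it is given with the count of all genes called. Neither is evidence about the 10 genes. All 10 passed the filter on low counts that left 18756 genes for testing, and all 10 had an average level of at least 3 on the log2 CPM scale, where CPM gives the counts of a gene per 1000000 counts of its library.

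RNA was sequenced from cultures labelled as microglia, the macrophages of the brain, which were wild-type mouse cells in primary culture for 15 days and came, per the study's methods, from the striatum of newborn C57/BL6 pups. Activation lasted 48 h in every library. It used LPS at 0.01% and interferon-γ, listed in the methods as a human reagent, at 0.002% by volume. Ligands were added 24, 32 and 40 h after activation began. The A2A antagonist group (4 libraries) had received SCH 58261, which blocks the adenosine A2A receptor. The dual group (4 libraries) had received SCH 58261 with 2-Cl-IB-MECA, which activates the adenosine A3 receptor. Ligands were used at 200 nM. The treatment field of the labels goes against the titles, since 2-Cl-IB-MECA appears there for the libraries titled SCH 58261 alone and is missing for those titled with both. The titles and the column names of the counts gave the same groups and were used, so every direction below rests on the titles, and every sign and every split into lower and higher would turn if the treatment field were right. Both groups were activated and both held the antagonist, and vehicle-treated cells were not analysed here. The methods state another number of replicates for ligand-treated cells than the 4 libraries per group in the files, whereas a figure legend of the study states 4. Here n is the number of libraries in the files. Nothing in the labels says that these came from separate cultures or animals, so p-values measure only the spread between these libraries, which may be technical.

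Libraries held 38427491 to 45878639 counts in the A2A antagonist group and 32630602 to 45544451 in the dual group. Each had a count for 26155 to 26809 genes. Mitochondrially encoded genes took 1.58% to 1.80% of counts. The edgeR quasi-likelihood test called 101 genes between the groups at an adjusted p under 0.05, of which 68 were lower and 33 were higher in the dual group. Without scaling factors for the libraries the split was 51 lower of 93, and the count of called genes ranged from 20 (without A2A antagonist library 4) to 253 (without A2A antagonist library 1) when 1 library was left out. Markers of astrocytes were abundant in these cultures (Gfap at 1549 to 1738 CPM, Slc1a3 at 1797 to 1964 CPM), while the microglial markers Cx3cr1 and Csf1r lay at 83.3 to 107 CPM and 211 to 244 CPM and the homeostatic markers Tmem119 and P2ry12 at 6.41 to 8.26 CPM and 1.47 to 2.50 CPM. The summed level of the 10 microglial markers was 686 to 705 CPM in the A2A antagonist group and 680 to 718 CPM in the dual group (two-sided exact permutation p = 0.686, 0.867 after Benjamini-Hochberg adjustment over 7 marker lists). That of the 10 astrocyte markers was 6988 to 7272 CPM and 6992 to 7482 CPM (exact permutation p = 0.60, adjusted 0.867), and that of the 6 fibroblast markers 2379 to 2652 CPM and 2369 to 2986 CPM (exact permutation p = 0.314, adjusted 0.867). The groups overlapped in the remaining 4 lists too, with oligodendrocyte markers (6) at 121 to 135 against 104 to 149 CPM, endothelial markers (4 of 5, since Cldn5 was not analysed here) at 44.3 to 56.8 against 46.7 to 59.0 CPM, neuronal markers (5) at 101 to 110.2 against 104 to 115 CPM, and proliferation markers (5) at 59.3 to 64.7 against 56.1 to 67.3 CPM. The summed astrocyte markers were thus far above the summed microglial markers in every library. These are sums of mRNA over different genes, not scaled by length, and do not count cells. The methods describe the cultures as nearly all positive for the microglial protein CD11b, which is a share of cells and another measure. No marker in the table was at 0 in a library, and edgeR called no marker, and the part of other cell types in the levels below was not tested. In RNA from whole cultures, fewer cells of a type and less RNA per cell cannot be told apart.

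Of the 3 enzymes of serine synthesis, the dual libraries held less mRNA of each, and Phgdh differed the most. Phgdh, which encodes phosphoglycerate dehydrogenase, the entry enzyme of the route, was at 96.9, 98.4, 93.1 and 99.6 CPM in the A2A antagonist libraries and at 84.4, 84.9, 76.6 and 75.5 CPM in the dual libraries. Every dual library lay below every A2A antagonist library, and dual libraries 3 and 4 were the lowest. The group means were 97.0 ± 2.82 and 80.4 ± 5.00 CPM (SD, n = 4), a difference of -17.2% in the dual group, and the fitted log2 fold change was -0.27 ± 0.042 (SE, dual against A2A antagonist). Psat1, which encodes the transaminase of the next step, was at 119, 116, 119 and 114 CPM in the A2A antagonist libraries and at 101, 99.1, 111 and 110.5 CPM in the dual libraries (means 117 ± 2.54 and 105 ± 6.15, SD, n = 4). Its groups did not overlap either, but here dual libraries 1 and 2 were the lowest, the opposite order to Phgdh. Psph, which encodes the phosphatase that releases serine, was at 31.9, 34.6, 34.0 and 32.97 CPM in the A2A antagonist libraries and at 30.2, 29.8, 29.8 and 30.9 CPM in the dual libraries (means 33.4 ± 1.2 and 30.2 ± 0.52, SD, n = 4). The dual libraries of Psph sat within a narrow band just under the lowest A2A antagonist library. The fitted log2 fold changes of Psat1 and Psph were -0.15 ± 0.040 and -0.14 ± 0.046 (SE).

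**Figure D1:**
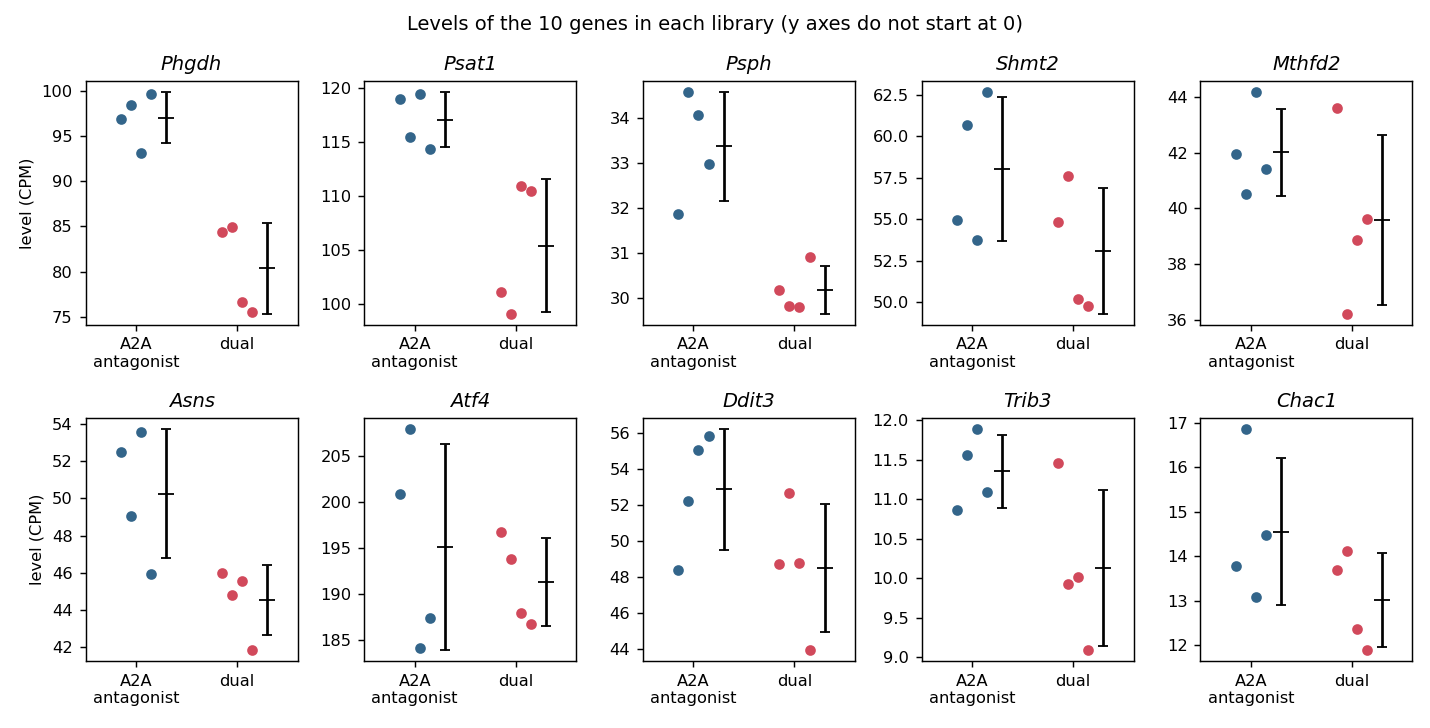
Level of each of the 10 genes in CPM (y axis, not starting at 0) in the 4 A2A antagonist and the 4 dual libraries. Points are libraries, and the black mark with its bar is the mean ± SD of a group. The groups do not overlap in Phgdh, Psat1 and Psph and overlap in the other 7 genes.

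Part of these counts could belong to other genes. Of the distinct stretches of 31 bases in the annotated transcripts of Phgdh, 56.3% also occur in other annotated genes, mainly the processed copies Gm7901, Gm9347 and Gm8341. Gm7901 had 47 to 90 counts in the A2A antagonist libraries and 53 to 135 in the dual libraries, Gm9347 had 9 to 18 and 8 to 19, and Gm8341 was not analysed here. With the counts of both copies added to those of Phgdh, the sum was 94.6 to 101.5 CPM in the A2A antagonist libraries and 77.1 to 89.0 CPM in the dual libraries, and the mean of the dual group differed by -16.3%, against -17.2% for Phgdh alone. The copies held few counts beside Phgdh, so the sum could hardly differ from Phgdh alone. It cannot show whether the shared stretches bear on the gap between the groups. Gm8341 is not in the sum, and how reads that fit several genes were counted was not examined. Psph shares 452 of its 4329 exon bases (10.4%) with Cct6a on the opposite strand. Other genes, Cct6a first among them, hold 9.79% of its 31-base stretches, and its counts are uncertain because strand use in counting was not stated. For Psat1 the share of such stretches was 2.18%.

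Promoter sequences of Phgdh and Psat1 are shown as examples from the 3 genes whose groups did not overlap, chosen after a search for CCAAT. Both hold these letters of the CCAAT box, which NF-Y is known to bind, on the strand of the gene shortly before a RefSeq start site. Psph, the third, holds them on the opposite strand, at positions -78 to -74 and -48 to -44, and the window of the other RefSeq start of Psat1 holds none. The sequences are from RefSeq in the GRCm38.p6 build, on the strand of each gene, the minus strand, and cover positions -100 to -1 from the start (chr3:98339970-98340069 for Phgdh and chr19:15925060-15925159 for 1 of the 2 RefSeq starts of Psat1). Capitals mark CCAAT.
Phgdh: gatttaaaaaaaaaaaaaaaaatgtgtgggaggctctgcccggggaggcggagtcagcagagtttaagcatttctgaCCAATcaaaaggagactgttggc
Psat1: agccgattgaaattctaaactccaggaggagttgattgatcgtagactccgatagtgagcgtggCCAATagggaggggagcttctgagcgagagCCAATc
Phgdh (ENSMUSG00000053398) spans chr3:98313170-98339990 on the minus strand, so the last 21 bases of its line fall in the annotated first exon. Psat1 (ENSMUSG00000024640) spans chr19:15904678-15947337 on the minus strand, so its whole line falls inside the annotated gene and not before its annotated start. On either strand CCAAT was found in the windows of 7 of the 10 genes (all but Shmt2, Asns and Trib3), where a window is 250 bases before to 50 after a start, and in the windows of 41.1% of 27025 genes (37.4% of 32851 windows). A match of letters is a description of the window and does not show binding.

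The mitochondrial folate enzymes were lower on average in the dual group, and their groups overlapped. Shmt2, whose product splits serine into glycine and a folate-bound carbon unit, was at 55.0, 60.7, 53.8 and 62.7 CPM in the A2A antagonist libraries and at 54.8, 57.6, 50.2 and 49.8 CPM in the dual libraries. Dual libraries 3 and 4 lay below all A2A antagonist libraries, whereas dual libraries 1 and 2 lay among them, which is the order seen for Phgdh. With means of 58.0 ± 4.33 and 53.1 ± 3.78 CPM (SD, n = 4), the groups differed by -0.13 ± 0.054 on the log2 scale (SE). Mthfd2, whose product oxidises that folate and which is known to be low in most resting adult tissues and raised in dividing cells, was at 41.9, 40.5, 44.2 and 41.4 CPM in the A2A antagonist libraries and at 43.6, 36.2, 38.8 and 39.6 CPM in the dual libraries. Its dual library 1 was among the highest of all 8 and the other 3 dual libraries were the lowest. The means were 42.0 ± 1.56 and 39.6 ± 3.05 CPM (SD, n = 4), and the fitted difference was -0.09 ± 0.050 on the log2 scale (SE). Shmt2 shares 32 of 3109 exon bases with Ndufa4l2 on the opposite strand.

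Asns, which encodes the enzyme that makes asparagine from aspartate and glutamine, was at 52.5, 49.1, 53.6 and 45.9 CPM in the A2A antagonist libraries and at 45.98, 44.8, 45.5 and 41.8 CPM in the dual libraries. The groups overlapped through A2A antagonist library 4 alone, which lay just below dual library 1. The means were 50.3 ± 3.49 and 44.5 ± 1.87 CPM (SD, n = 4), and the fitted log2 fold change was -0.17 ± 0.049 (SE), or -11.4%. None of the 31-base stretches of Asns occurs in another annotated gene.

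Atf4 itself hardly differed between the groups. Its mRNA was at 201, 208, 184 and 187 CPM in the A2A antagonist libraries and at 197, 194, 188 and 187 CPM in the dual libraries. All 4 dual libraries lay within the range of the A2A antagonist libraries. The means were 195 ± 11.2 and 191 ± 4.78 CPM (SD, n = 4). The fitted log2 fold change of -0.03 ± 0.038 (SE) turned to 0.0033 when A2A antagonist library 2 was left out.

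Ddit3 encodes CHOP, a transcription factor known from prolonged endoplasmic reticulum stress. It was at 48.4, 52.2, 55.0 and 55.8 CPM in the A2A antagonist libraries and at 48.7, 52.6, 48.8 and 43.9 CPM in the dual libraries. Dual library 4 alone lay below all A2A antagonist libraries. The log2 fold change was -0.13 ± 0.053 (SE), with means of 52.9 ± 3.36 and 48.5 ± 3.57 CPM (SD, n = 4). Ddit3 shares 68 of its 1713 exon bases (3.97%) with Mars, a tRNA synthetase gene on the opposite strand, and 105 (6.13%) with a second annotated gene of the same name, which was not analysed here.

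Trib3, whose product is a pseudokinase known to bind ATF4 and AKT, was the least abundant of the 10 genes, at 10.9, 11.6, 11.9 and 11.1 CPM in the A2A antagonist libraries and at 11.5, 9.93, 10.02 and 9.09 CPM in the dual libraries. Dual libraries 2, 3 and 4 lay below all A2A antagonist libraries and dual library 1 among them, as with Mthfd2. Chac1, whose product degrades glutathione, was at 13.8, 16.9, 13.1 and 14.5 CPM in the A2A antagonist libraries and at 13.7, 14.1, 12.4 and 11.9 CPM in the dual libraries. Dual libraries 3 and 4 were again the lowest of the 8. The means of Trib3 were 11.4 ± 0.46 and 10.1 ± 0.98 CPM and those of Chac1 were 14.6 ± 1.64 and 13.02 ± 1.06 CPM (SD, n = 4), and both genes had a log2 fold change of -0.17, with SE of 0.077 and 0.079.

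The response element through which ATF4 with a C/EBP partner is known to act on its targets has the core TGATGNAA, where N is any base. On either strand this core was found in the windows of Asns, Chac1 and Trib3, that is in 3 of the 10 genes, and in 3.97% of 32851 windows (4.51% of 27025 genes). These stretches are shown because they hold the core, which is in capitals. They are from RefSeq in GRCm38.p6, each on the strand of its gene: chr6:7693225-7693324 (minus) for Asns, chr2:119351022-119351121 (plus) for Chac1 and chr2:152344028-152344057 (minus) for Trib3.
Asns: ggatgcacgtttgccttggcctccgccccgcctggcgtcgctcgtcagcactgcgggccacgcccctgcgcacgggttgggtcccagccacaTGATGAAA
Chac1: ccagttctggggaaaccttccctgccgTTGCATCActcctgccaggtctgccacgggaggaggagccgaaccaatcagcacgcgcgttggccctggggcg
Trib3: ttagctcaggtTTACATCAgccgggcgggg
In Asns the core reads in the direction of the gene, at positions -23 to -16 from the RefSeq start. In Chac1 and Trib3 it reads on the opposite strand, at positions -193 to -186 and 15 to 22. The start sites of the annotations differ. The deposited coordinates place Asns (ENSMUSG00000029752) at chr6:7675169-7693254, so its core falls within the first exon there. They place Trib3 (ENSMUSG00000032715) at chr2:152337422-152344032, so its core falls upstream. Chac1 (ENSMUSG00000027313) spans chr2:119351229-119354381. The 9-base form ATTGCATCA was found in none of the 10 genes and in 0.192% of windows, and the ATF/CREB palindrome TGACGTCA in none of the 10 genes and in 1.79% of windows. No match says only that these letters are not in the window, and elements known to lie elsewhere in these genes would not be seen.

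All 10 genes had a fitted log2 fold change below 0, as did 48.5% of the 18756 genes tested and 52.5% of the 11062 genes at a log2 CPM of 3 or more. The difference of Atf4 was smaller than its SE. At an adjusted p under 0.05, edgeR called Phgdh and none of the other 9, against 0.363% of genes called lower and 0.538% called in either direction. At an unadjusted p under 0.05, 8 of the 10 were lower (all but Mthfd2 and Atf4), against 6.7% of genes. The groups did not overlap, with dual lower, in 3 of the 10, against 4.06% of genes, and with an added fold over 1.5, a threshold of the study, none of the 10 was called, against 0.0107% of genes. Since the 10 genes were chosen on this comparison, nothing is read from these counts. Their median log2 fold change was -0.15, that of all genes tested was 0.0038, and that of the 11062 genes at a log2 CPM of 3 or more was -0.0042 (5th to 95th percentile -0.13 to 0.13).

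**Figure D2:**
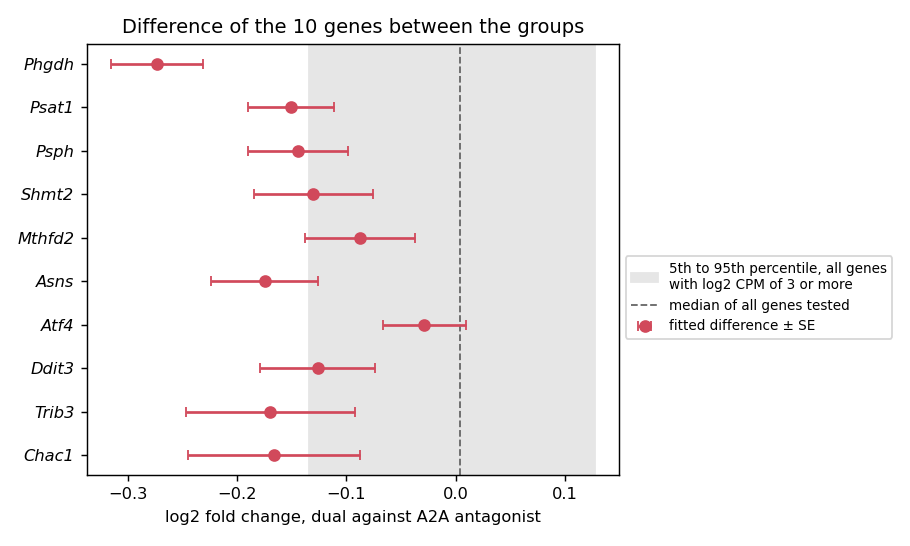
Fitted log2 fold change (x axis, dual against A2A antagonist) of each of the 10 genes, with bars of ± SE. The grey band spans the 5th to the 95th percentile (-0.13 to 0.13) of genes with a log2 CPM of at least 3, and the dashed line is the median of all genes tested. Phgdh lies farthest to the left at -0.27, and Atf4 lies nearest to the median at -0.03.

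The order of the 10 genes by level was compared per length, as CPM per kilobase of gene length. Atf4 was the highest, at 82.7 ± 4.73 CPM per kilobase in the A2A antagonist group and 81.1 ± 2.03 in the dual group (SD, n = 4). Phgdh followed at 39.0 ± 1.14 and 32.3 ± 2.01, and Trib3 was the lowest at 5.34 ± 0.22 and 4.77 ± 0.46 CPM per kilobase. In the A2A antagonist group the order between these ends was Ddit3 (30.9), Psat1 (27.5), Shmt2 (18.7), Asns (18.4), Mthfd2 (12.05), Chac1 (8.89) and Psph (7.71 CPM per kilobase). Neighbours in this order did not overlap between libraries, except that Shmt2 and Asns overlapped in both groups, and Phgdh with Ddit3 and Ddit3 with Psat1 in the dual group. Among the serine enzymes, Psph was thus far below Phgdh and Psat1 in both groups on this scale. Gene length here is that of all annotated exon bases together (4329 for Psph). Transcripts in use may be shorter, which would raise a level per kilobase, and this was not tested.

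**Figure D3:**
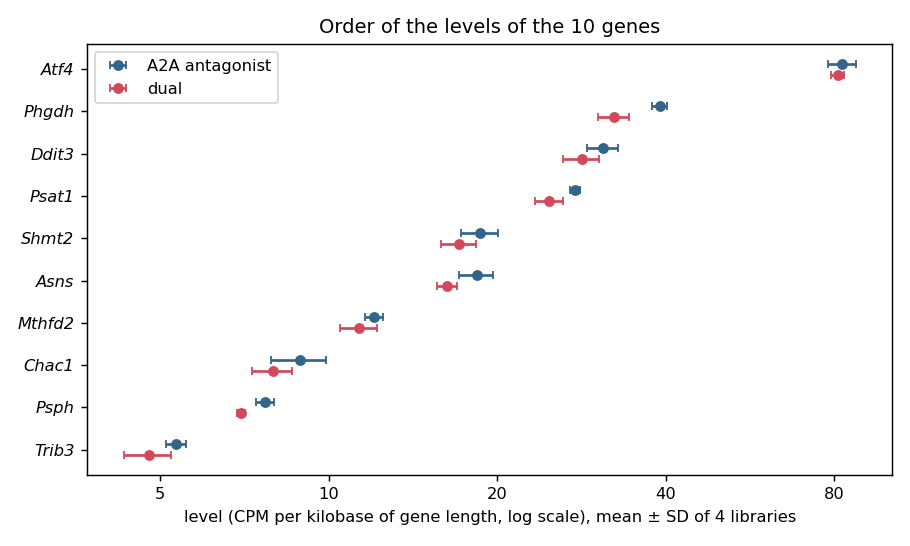
Level of the 10 genes in CPM per kilobase of gene length (x axis, log scale), as mean ± SD of the 4 libraries of each group, ordered by the A2A antagonist group. Atf4 is the highest (82.7 and 81.1) and Trib3 the lowest (5.34 and 4.77).

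The spread between libraries was wider than counting error for most of these genes. The coefficient of variation over the 4 libraries was 2.17% to 11.3% in the A2A antagonist group and 1.73% to 9.72% in the dual group, where counting error alone gives 1.12% (Atf4) to 4.74% (Trib3). Atf4 and Asns varied more among A2A antagonist libraries (5.72% and 6.94%) than among dual libraries (2.50% and 4.2%), and Phgdh and Psat1 less (2.91% and 2.17% against 6.22% and 5.84%). These differences in spread were not tested.

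The dual libraries were unequal. Of the 10 genes, 7 lay below their mean over the 8 libraries in dual library 1, 6 in dual library 2, and all 10 in dual libraries 3 and 4, whereas 1 to 3 did so in each A2A antagonist library. The median deviation of the 10 genes from that mean was -0.03, -0.07, -0.08 and -0.16 on the log2 scale in the dual libraries and 0.03 to 0.11 in the A2A antagonist libraries. Dual library 4 was the lowest of the 8 for Phgdh, Shmt2, Asns, Ddit3, Trib3 and Chac1. Across the 8 libraries, 42 of the 45 pairs of the 10 genes had a Pearson r above 0 (median 0.51, highest 0.87 for Shmt2 and Chac1), values that hold the difference between the groups. On deviations from the group means, 26 of 45 pairs were above 0 (median 0.09). The extremes were then 0.88 for Phgdh with Shmt2 and -0.97 for Phgdh with Psat1, which encode neighbouring steps of serine synthesis. The other neighbouring pair, Psat1 with Psph, was at 0.09. These r are a description over 8 libraries that share their scaling.

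**Figure D4:**
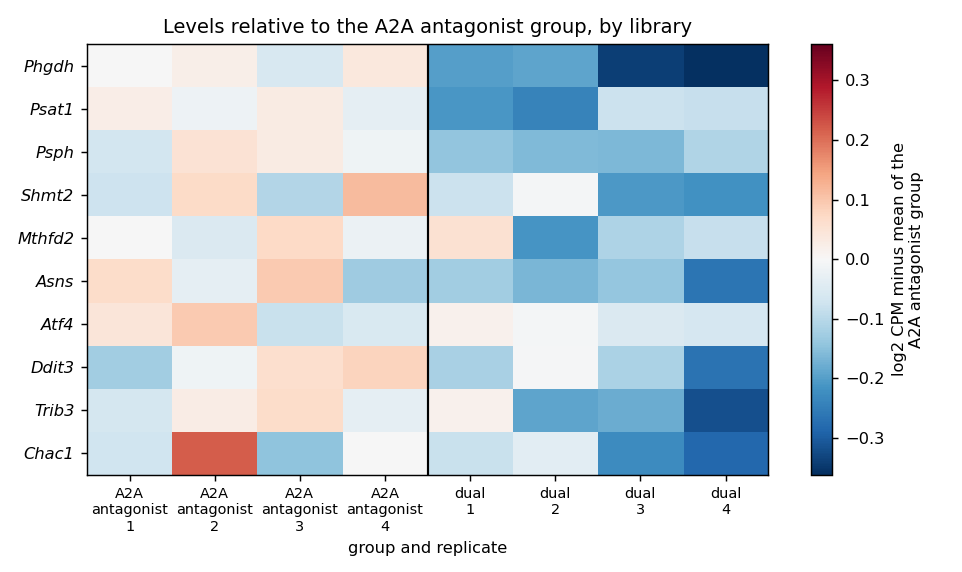
Log2 CPM of each of the 10 genes (rows) in each library (columns), minus the mean of the A2A antagonist group, in colour (red higher, blue lower). Dual libraries 2, 3 and 4 lie below 0 for all 10 genes, though library 2 is close to 0 for Shmt2, Atf4 and Ddit3. Dual library 1 lies above 0 for Mthfd2, Atf4 and Trib3. In Psat1 dual libraries 1 and 2 are the lowest.

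Other genes of the same pathways were read from 7 lists, which like the 10 genes were set with earlier results of these data known. Of all 18756 genes tested, 48.5% were lower, 6.7% were lower at an unadjusted p under 0.05, and 0.538% were called in either direction. Among 18 further genes of serine, glycine and folate metabolism, edgeR called none at an adjusted p under 0.05, and none had an unadjusted p under 0.05. Their median log2 fold change was -0.02, with 11 lower and 7 higher. Shmt1, the cytosolic counterpart of Shmt2, had a log2 fold change of -0.18 ± 0.11 (SE, edgeR adjusted p = 0.508) at 5.05 ± 0.35 and 4.47 ± 0.42 CPM, and Mthfd1l, which releases formate from mitochondria, one of 0.08 ± 0.06 (SE, edgeR adjusted p = 0.637) at 27.4 ± 2.0 and 29.0 ± 2.48 CPM (SD, n = 4). The list around Phgdh, Psat1 and Psph therefore showed no called change.

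The genes upstream of ATF4 did not pass the test either. Of 16 genes for the eIF2α kinases, the eIF2α phosphatase and eIF2B, 9 were lower and 7 higher with a median of -0.02, and edgeR called none, with 1 at an unadjusted p under 0.05 in each direction. These were Eif2b1, a subunit of eIF2B, at -0.12 ± 0.05 (SE, edgeR adjusted p = 0.338) and Eif2ak4, the kinase GCN2 that senses uncharged tRNA, at 0.12 ± 0.05 (SE, edgeR adjusted p = 0.308). Of 14 genes listed as partners or relatives of ATF4, all bZIP factors but the stress gene Nupr1, 9 were lower and 5 higher with a median of -0.03, and edgeR called none. Atf5, a close relative of Atf4, was at 165, 189, 172 and 188 CPM in the A2A antagonist libraries and at 170.4, 167, 161 and 148 CPM in the dual libraries, groups that overlapped (log2 fold change -0.14 ± 0.05, SE, edgeR adjusted p = 0.205). It was the 1 gene of this list with an unadjusted p under 0.05, and the highest value of the list was that of Fos at 0.18 ± 0.13 (SE, edgeR adjusted p = 0.638).

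Of 12 amino acid transporters, edgeR called 1, Slc7a5, which encodes the light chain of the large neutral amino acid transporter LAT1. It was at 97.7, 101, 101 and 95.1 CPM in the A2A antagonist libraries and at 92.4, 90.8, 84.7 and 79.7 CPM in the dual libraries. The groups did not overlap, and dual libraries 3 and 4 were the lowest, as for Phgdh. The log2 fold change was -0.18 ± 0.04 (SE, edgeR adjusted p = 0.0496), a value that went to 0.0605 without scaling factors, to 0.0809 without robust estimation, and above 0.05 without A2A antagonist library 2, 3 or 4 (0.173, 0.143 and 0.0969) or dual library 3 or 4 (0.147 and 0.0784). Slc6a9, the glycine transporter GlyT1, had -0.19 ± 0.06 (SE, edgeR adjusted p = 0.118), at 22.2 ± 0.72 and 19.4 ± 1.08 CPM (SD, n = 4). In the other direction, Slc7a11, which encodes the cystine transporter xCT and is itself a known ATF4 target, had 0.20 ± 0.08 (SE, edgeR adjusted p = 0.353) at 434 ± 24.9 and 499 ± 55.0 CPM (SD, n = 4), with 541 and 552 CPM in dual libraries 3 and 4. The list was split evenly, 6 lower and 6 higher, with a median of 0.02.

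All 20 cytosolic tRNA synthetase genes had a log2 fold change below 0. This held for 48.5% of all genes and for 52.5% of the 11062 genes at a log2 CPM of 3 or more. All 20 lay above that level, whereas the other shares in this paragraph are over all genes tested. The values ran from -0.14 for Gars to -0.02 for Qars, and edgeR called none of the 20 (smallest adjusted p = 0.0828). Several genes of this family are known ATF4 targets. The median of the 20 was -0.08, and 10 of the 20 were lower at an unadjusted p under 0.05, against 6.7% of all genes. Their summed level was 2235 to 2270 CPM in the A2A antagonist libraries and 2099 to 2161 CPM in the dual libraries, and taken singly 6 of the 20 had groups that did not overlap, against 4.06% of all genes. Gars, the glycyl-tRNA synthetase, was at 97.5, 103, 105 and 99.3 CPM in the A2A antagonist libraries and at 94.5, 91.3, 91.9 and 91.2 CPM in the dual libraries (log2 fold change -0.14 ± 0.04, SE, edgeR adjusted p = 0.0828). Every dual library lay below every A2A antagonist library. Qars, the glutaminyl-tRNA synthetase, was at 104 ± 3.12 and 103 ± 2.62 CPM (SD, n = 4, log2 fold change -0.02, edgeR adjusted p = 0.904), and its log2 fold change turned to 0.00037 without A2A antagonist library 4.

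Of 18 further ATF4 and stress target genes, 17 were tested (Fgf21 was too low), 14 were lower and 3 higher with a median of -0.06, and edgeR called none, with 3 lower and 1 higher at an unadjusted p under 0.05. Eif4ebp1, whose product holds back cap-dependent translation, was at 55.8 ± 2.60 and 49.5 ± 3.45 CPM (SD, n = 4, log2 fold change -0.17 ± 0.05, SE, edgeR adjusted p = 0.100). Ero1l, an oxidase of the endoplasmic reticulum, was at 75.1 ± 3.95 and 85.1 ± 5.39 CPM (SD, n = 4, log2 fold change 0.18 ± 0.05, SE, edgeR adjusted p = 0.0751). Of 20 genes of the IRE1-XBP1 and ATF6 arms, the other branches of the unfolded protein response, 11 were lower and 9 higher with a median of -0.0045, and edgeR called none, with 1 at an unadjusted p under 0.05. That was Sdf2l1, a chaperone partner, at -0.11 (edgeR adjusted p = 0.302), and the highest value of the list was that of the chaperone gene Dnajb9 at 0.07 (edgeR adjusted p = 0.526). The medians of the 7 lists thus lay between -0.08 and 0.02, where that of all genes tested was 0.0038. The -0.15 of the 10 genes is no measure to set beside these, since the 10 genes were chosen on this comparison. The medians were not tested against each other.

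**Figure D5:**
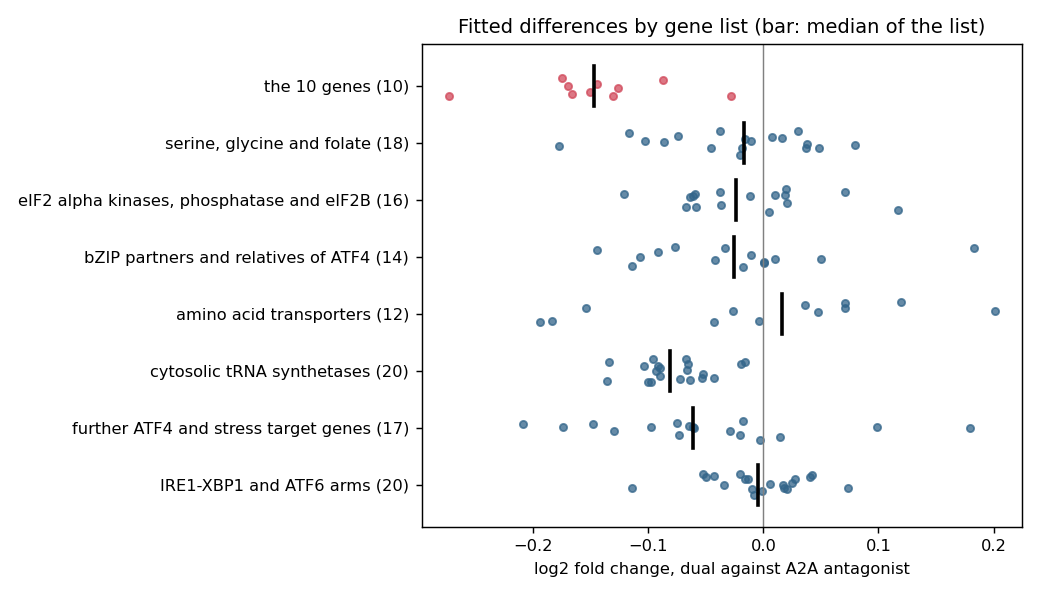
Fitted log2 fold changes (x axis, dual against A2A antagonist) of the 10 genes and of the genes of the 7 pathway lists, with the number tested in parentheses. Each point is a gene and each black bar the median of its list. The tRNA synthetase points all lie below 0, whereas the serine, glycine and folate genes spread to both sides.

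Among 10578 protein-coding genes outside these lists with a log2 CPM of at least 3, the levels most like the mean standardized level of the 10 genes over the 8 libraries were those of Zwint (r = 0.99), Nfkbie (0.98), Cdk4 (0.98), Eif3c (0.97) and Ssr4 (0.97). Each of these genes was lower on average in the dual group, with log2 fold changes between -0.14 (Cdk4) and -0.10 (Eif3c), and edgeR called none of them. With deviations from the group means in place of levels, Zwint alone remained among the 5 most alike (r = 0.98), beside Dbn1, Stub1, Plekho1 and Csnk1g2. The likeness is a ranking over 8 libraries that includes the difference between the groups.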

How the data were processed

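The study states that the authors mapped read pairs with HISAT2 to the Ensembl mouse genome and used featureCounts for the counts per gene (version 1.5.0-p3 in the submitters' processing notes). The deposited values are raw counts per gene, not normalized and not pooled. The deposited tables also hold the authors' fold changes and p-values, which were not used, and 9 columns of per-sample values that carry no sample of the series, which were not used either. Both tables gave the same counts for the A2A antagonist libraries (0 differing values over 30302 shared genes).

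The 8 libraries were compared with edgeR (version 4.0.16, R 4.3.3): filterByExpr with a minimum count of 10, TMM scaling, robust dispersion and quasi-likelihood F test of dual against A2A antagonist without covariates, two-sided, with Benjamini-Hochberg adjustment over 18756 genes. The common biological coefficient of variation was 5.28%. SE was derived from the F statistics. CPM are scaled with TMM, with a prior count of 2 for log2 CPM. Marker sums were compared with the exact permutation test over 70 arrangements (smallest p 0.0286). Replicate pairs differed beyond counting noise, so none was taken as a repeated library. Promoters came from RefSeq (GRCm38.p6, all 10 genes matched), and exon overlaps and 31-base stretches from GENCODE M21 (GRCm38), where all 10 genes have the deposited coordinates.

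The 10 genes, the lists and the tests were chosen with earlier results of these data known. Named list genes are those called, plus the highest and the lowest log2 fold change of each list (mean log2 CPM of at least 1), and the 5 genes most like the 10 in level. Alternatives were RLE scaling, no scaling, no filter, DESeq2 1.42.0, a replicate block, and leaving out each library. A fit without robust estimation and the searches for CCAAT and TGACGTCA were chosen after seeing the data.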

Additional observations from a re-analysis of the deposited data

Results flagged for a closer look

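In 1 of 60 groups of 4 libraries tested among the named genes, a library stood far from the other 3. This was Shmt1 in the A2A antagonist group, where library 1 was at 5.57 CPM and the other 3 at 4.84 to 4.92 CPM (gap over range 0.887, above the 95% critical value of Dixon). Chance flags about 1 in 20 such groups, and the cause was not tested.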

How the results depend on the processing

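Since the 10 genes were chosen on this comparison, their calls describe the fits and are no evidence of a stable difference. Phgdh was past the threshold in 14 of 14 alternative fits (log2 fold change -0.30 to -0.24), Psat1 in 3, Asns in 2 and the other 7 genes in none. The log2 fold changes of the 10 genes were below 0 in all 14 fits, except Atf4, which ranged from -0.056 to 0.0033 when 1 library was left out (0.0033 without A2A antagonist library 2), and Qars ranged from -0.033 to 0.00037 (0.00037 without A2A antagonist library 4). The count of called genes was 101, and it was 478 without a filter, 381 with DESeq2, 47 with the replicate block, 39 without robust estimation and 20 to 253 without 1 library (253 without A2A antagonist library 1, and 27, 37, 20 and 24 without A2A antagonist libraries 2, 3 and 4 and dual library 3). Of the 10 genes, 3 were called without a filter, against 478 of all 31406 genes, and 3 with DESeq2, against 381 of 31401. Without 1 library, 1 to 2 of the 10 were called (Psat1 too without dual library 4), against 20 to 253 of all genes tested. The replicate numbers of the labels showed no pairing, since same-numbered libraries of the groups did not deviate together (Pearson r -0.14 to -0.04 across genes). Each A2A antagonist library deviated most like a dual library of another number (1 with 4, 2 with 3, 3 with 1, 4 with 2). A pairing under other numbers was not tested. The replicate block called 1 of the 10, against 47 of 18756 genes, and no transporter (edgeR adjusted p of Slc7a5 = 0.0754). Without a filter the calls were 2 transporters, 1 bZIP factor (Atf5), 2 synthetases and 2 further target genes, and with DESeq2 they were 2 transporters, 4 synthetases and 2 further target genes. In both fits the further target genes were Eif4ebp1, which was lower, and Ero1l, which was higher, and the other list genes called were lower. No transporter was called without scaling or without robust estimation (0 each). Without 1 library, 0 to 1 transporters, synthetases (Gars) and further target genes (Ero1l) were called, and the median of the transporters ranged from -0.029 to 0.018. Depth limits Trib3 the most of the 10 genes, with as few as 374 counts in a library. The C/EBP-ATF core was found in 2 of the 10 genes upstream of the start alone, against 3.45% of all windows. The cause of these changes was not tested.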
